A study of Bos grunniens and Bos grunniens x Bos taurus with 2 samples.

Results

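Gamma delta T-like cells of the yak and cattle-yak testis were picked out of 2 single-cell RNA libraries by their own transcripts. A cell was taken as a member when it held at least 2 UMIs (unique molecular identifiers, each standing for 1 captured RNA molecule) of TRDC, the constant region gene of the T cell receptor delta chain, at least 1 UMI of CD3D or CD3G, which encode the signalling chains of the receptor complex, and no UMI of CDH5, DCN or LMOD1, which mark endothelial, stromal and muscle cells. Cells with 30% or more mitochondrial UMIs were left out beforehand. This gave 1183 members among 20921 cells, 977 of 11991 in the yak library and 206 of 8930 in the cattle-yak library. The members were thus chosen by the measured values of these 6 genes, which are no result here.

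One library came from the testis of a 4-year-old yak (Bos grunniens) and the other from the testis of a cattle-yak, the hybrid of cattle and yak whose males are sterile. Both animals were labelled as sampled after sexual maturity, and the cells of both libraries as germ cells, although the libraries hold many other cell types. Each library was 1 sample, and the study describes 1 animal, the yak. Differences between the libraries therefore cannot be told apart from differences between animals or preparations, no test was run, and every interval below covers counting error only. The tissue had been frozen, thawed and digested with enzymes to release single cells, so the cell shares describe what survived that treatment.

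Most T cells recognise antigen through a receptor of an alpha and a beta chain, while gamma delta T cells carry a gamma and a delta chain. Ruminants are known for large numbers of gamma delta T cells, both in blood and in tissues. These cells often combine the receptor with killer cell functions, such as granzymes, chemokines and receptors shared with natural killer (NK) cells, and a separate kind of gamma delta T cell makes interleukin-17. No feature of the count tables was matched to the constant genes of the gamma chain, CD8A, CD8B, CD2, GZMB, KLRB1, IL17A or the WC1 co-receptor genes of ruminants, and these are not analysed here.

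Members made up 8.79% of the 11114 yak cells under the mitochondrial limit (exact 95% binomial interval 8.27% to 9.33%) and 2.70% of the 7620 cattle-yak cells (2.35% to 3.09%). Below 20% mitochondrial UMIs the shares were 9.05% and 1.64%, and with no UMI of 7 further genes of other cell types 5.88% and 1.77%, so the lower cattle-yak share held while its size moved. They were small cells in terms of RNA, with a median of 2119 UMIs and 807 genes in the yak and 2436.5 UMIs and 770 genes in the cattle-yak. Endothelial cells of the same libraries held a median of 10289 and 10836 UMIs. The median mitochondrial share was 14.8% in yak members and 21.9% in cattle-yak members. The libraries shared 24 cell barcodes, and 1 member, in the cattle-yak library, carried such a barcode.

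TRDC reached a median of 4 UMIs and a maximum of 47 in yak members, and a median of 5 and a maximum of 28 in cattle-yak members. Just inside the threshold lay 185 yak and 34 cattle-yak members with exactly 2 TRDC UMIs, and just outside it 213 yak and 18 cattle-yak cells with CD3 and 1 TRDC UMI. CD3D and CD3G together gave a single UMI in 405 yak and 108 cattle-yak members. A further 375 yak and 96 cattle-yak cells had at least 2 TRDC UMIs but no CD3D or CD3G UMI, and 124 and 40 cells met both T cell criteria but held a UMI of CDH5, DCN or LMOD1. The latter were larger, with a median of 5644 and 4139 UMIs. In each cell thinned to 1000 UMIs, which left out 18 yak and 3 cattle-yak members below that depth, TRDC was seen in 0.589% of yak and 0.149% of cattle-yak endothelial cells, which should lack it. The endothelial cells had been picked with at least 2 UMIs of CDH5, fewer than 2 of TRDC and none of CD3D or CD3G. Their low TRDC shares were thus partly set by that choice. They were also deeper before thinning, at a median of 10289 and 10836 UMIs. The shares therefore do not measure how much TRDC RNA from other cells the members held.

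Members were set against the other T cells of the same library, called TRDC-0 T cells: cells with CD3D or CD3G, no TRDC UMI, and no UMI of the 3 genes of other cell types. There were 1338 of them in the yak and 408 in the cattle-yak, with median depths of 2047.5 and 2356 UMIs, close to the members. Some may be gamma delta T cells in which no TRDC molecule was captured, and these cannot be told apart. Levels are given as CPM, the UMIs of the gene per 1000000 UMIs summed over all cells of a group, log2 ratios of single genes as members over TRDC-0 T cells after adding 1 CPM to each side, and list ratios and all intervals without that addition.

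Germ cell transcripts differed strongly between the sides of this comparison in the yak. The 9 germ genes measured, among them UCHL1 and SYCP3 of early germ cells and ACRV1 and CAPZA3 of spermatids, summed to 196 CPM in yak members and 1629 CPM in yak TRDC-0 T cells, and to 68.4 and 205 CPM in the cattle-yak. In the yak, 68 TRDC-0 T cells with at least 3 germ gene UMIs held 42.0% of all UMIs of that group, with a median of 24430 UMIs each. Only 8 yak members did so, and they held 5.59%. In the cattle-yak the shares were 6.41% and 0.922%. Cells with germ gene UMIs enter the sums with all their RNA, which is part of the total to which CPM refers. Most ratios are therefore also given, or given only, for cells without any germ gene UMI (801 and 177 members, 1024 and 353 TRDC-0 T cells). That restriction was chosen after the data were seen. Across all genes tested, the median log2 ratio was -0.34 in the yak and -0.09 in the cattle-yak over all cells, and 0.02 in both without germ gene UMIs.

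Markers of other cell types were low in members, for some lists in part by the selection. The endothelial, stromal and muscle lists hold CDH5, DCN and LMOD1 in turn, which the selection set to 0 in members and TRDC-0 T cells. The macrophages, endothelial cells and muscle cells shown beside them were picked by UMIs of C1QA and CSF1R, of CDH5 and of LMOD1 in turn. Their high levels of these lists were thus also partly set by selection. The macrophage markers, of which C1QA and CSF1R are the best known, summed to 72.9 CPM in yak and 37.0 CPM in cattle-yak members, against 6188 and 9734 CPM in macrophages. In TRDC-0 T cells they summed to 419.5 and 34.3 CPM, and without germ gene UMIs to 53.7 CPM in yak TRDC-0 T cells beside 57.4 CPM in yak members. Of the 8 annotated macrophage markers, 8 in the yak and 6 in the cattle-yak were above 0, with AIF1 highest at 33.7 CPM in the yak and C1QC at 12.9 CPM in the cattle-yak, while CSF1R and CD14 were at 0 in the latter. The B cell markers summed to 12.8 and 31.4 CPM, led by CD79A in both libraries, with PAX5 at 0 in both. Endothelial markers summed to 68.5 and 49.9 CPM, against 1970 and 1678 CPM in endothelial cells, with PECAM1 highest and CLDN5 at 0 in the cattle-yak. Stromal markers summed to 37.3 and 48.05 CPM, with COL1A2 highest and LUM at 0 in both libraries. The muscle markers reached 749.6 CPM in yak and 242 CPM in cattle-yak members, led by TAGLN at 328 and 92.4 CPM. They stood at 13854 and 22925 CPM in muscle cells, and at 522 and 266 CPM in the TRDC-0 T cells. Without germ gene UMIs they were at 715.7 CPM in yak members against 774.4 CPM in yak TRDC-0 T cells. In the cattle-yak these were 243.5 and 287.6 CPM. Of 6 mast cell and granulocyte markers, CPA3, HDC, S100A8 and S100A9 were at 0 in both libraries, and the sum of 82.9 and 88.7 CPM was nearly all CSF3R. The part of these transcripts in the results below was not tested.

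The constant genes of the alpha and beta chains were lower in members, but far from absent. The beta constant gene (ENSBGRG00000007369) stood at 796 CPM in yak members (exact Poisson 95% interval 762 to 832) and 802 CPM in cattle-yak members (728 to 881), against 1000 and 1564 CPM in TRDC-0 T cells. The alpha constant gene (ENSBGRG00000008096) stood at 273 CPM (253 to 294) and 131 CPM (102 to 166), against 424 and 600 CPM. The alpha gene was thus the further reduced of the pair in both libraries. Summed, the pair differed by a log2 ratio of -0.41 (-0.48 to -0.35) in the yak, or -1.12 (-1.20 to -1.05) without germ gene UMIs, and by -1.21 (-1.35 to -1.07) or -1.26 (-1.41 to -1.11) in the cattle-yak. After thinning to 1000 UMIs, the beta gene was seen in 50.7% of yak and 45.8% of cattle-yak members and the alpha gene in 17.6% and 8.87%, or without thinning in 72.5%, 73.8%, 31.4% and 20.9%. In thinned endothelial cells these shares were 1.18% and 0.298% for the beta gene and 0.253% and 0.446% for the alpha gene. Both genes thus lay above these endothelial cells in thinned members. Those cells were picked to hold no CD3D or CD3G UMI and were deeper before thinning, so their shares may understate the level from free RNA. A cell holding TRDC here could thus also hold alpha or beta constant transcripts, and the gamma chain that would complete the receptor could not be checked.

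Of the genes that mark these cells, IL2RB, which encodes the shared beta chain of the receptors for interleukin-2 and interleukin-15, was the one that the selection did not use. It stood at 554 CPM in yak members (525 to 584) and 608 CPM in cattle-yak members (544 to 677), against 121 and 232 CPM in TRDC-0 T cells. The log2 ratio was 2.19 in the yak (1.51 without germ gene UMIs) and 1.39 in the cattle-yak (1.38). IL2RB was seen in 39.9% and 41.9% of thinned members (58.9% and 62.6% without thinning), and in 2.44% and 1.04% of thinned endothelial cells. It was seen in 16.6% and 16.7% of thinned TRDC-0 T cells, so it lay above them in both libraries by level and by share.

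Counted by size alone, 435 of 11156 yak genes (3.9%) were at least 2-fold higher in members than in TRDC-0 T cells and 3592 (32.2%) at least 2-fold lower, where a gene needed 20 UMIs over both sides. Without germ gene UMIs these were 202 of 7980 genes (2.53%) and 187 genes (2.34%), so the count of lower genes was far smaller. In the cattle-yak the counts were 170 of 5225 (3.25%) and 414 (7.92%) over all cells, and 211 of 4534 (4.65%) and 197 (4.34%) without germ gene UMIs. These shares are the background for the counts within gene lists below that compare members with TRDC-0 T cells. All counts within lists are descriptions.

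**Figure D1:**
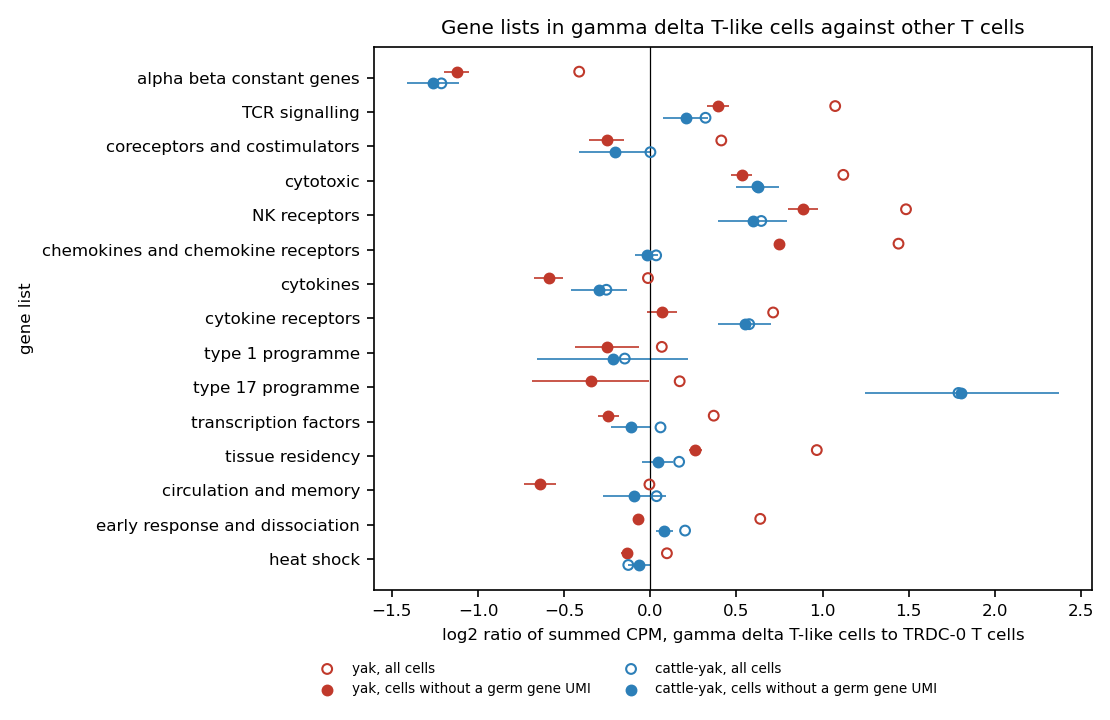
Log2 ratio of summed CPM of each gene list in gamma delta T-like cells over TRDC-0 T cells (x axis) for 15 gene lists (y axis). Open circles are all cells, filled circles are cells without a germ gene UMI with the exact 95% interval as a bar, red for the yak library and blue for the cattle-yak library. The alpha beta constant genes lie left of 0 and the cytotoxic list and NK receptors right of 0 in both libraries, and the filled circle of the type 17 programme lies right of 0 only in the cattle-yak library.

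The cytotoxic list, which holds granzymes and the proteins packed with them, was higher in members. Its 10 annotated genes summed to 2452 CPM in yak members and 1128 CPM in TRDC-0 T cells, a log2 ratio of 1.12 (1.07 to 1.17), or 0.53 (0.47 to 0.59) without germ gene UMIs. In the cattle-yak the sums were 2011 and 1306 CPM, a log2 ratio of 0.62 (0.51 to 0.74) over all cells and 0.62 (0.50 to 0.75) with the restriction. The median over its tested genes was 1.14 (0.40 without germ gene UMIs) in the yak and 0.17 (0.47) in the cattle-yak, beside the medians over all genes given above. Over all cells, 6 of 10 tested genes in the yak and 2 of 9 in the cattle-yak were at least 2-fold higher and none lower. With that restriction, 2 of 10 and 2 of 9 were, NKG7 and GZMK in both libraries, and FASLG in the cattle-yak was at least 2-fold lower. NKG7, a protein of cytotoxic granules, stood at 721 CPM in yak and 695 CPM in cattle-yak members against 194 and 272 CPM. GZMK, a granzyme of effector memory cells, stood at 238 CPM (219 to 258) and 68.4 CPM (48.1 to 94.2) against 56.7 and 23.5 CPM. CST7, an inhibitor of the proteases that activate granzymes, was at 638 and 649 CPM against 294 and 366 CPM. These genes were thus higher in members of both libraries. GZMM, a further granzyme, was at 153 CPM in yak members against 51.2 CPM and at 72.1 CPM in cattle-yak members against 78.5 CPM, with log2 ratios of 0.73 and -0.19 without germ gene UMIs. TNFSF10, the death ligand TRAIL, was at 220 and 174 CPM against 98.05 and 154 CPM, with 0.40 and 0.08. The pore-forming PRF1 was lower in level, at 18.4 and 35.1 CPM, and GZMA had 26 UMIs in yak members and 1 UMI in cattle-yak members. FASLG, the Fas ligand, had a log2 ratio of 0.02 in the yak and -1.24 in the cattle-yak without germ gene UMIs. SRGN, the proteoglycan core of the granules, was at 141 and 96.1 CPM against 138 and 121 CPM.

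NK receptors were higher in members as well. The 9 annotated genes summed to 1337 CPM in yak members against 478 CPM, a log2 ratio of 1.48 (1.41 to 1.56), or 0.89 (0.80 to 0.97) without germ gene UMIs, and to 785 against 503 CPM in the cattle-yak, a log2 ratio of 0.64 (0.46 to 0.83), or 0.59 (0.39 to 0.79). Over all cells, 5 of 7 tested genes were at least 2-fold higher and 1 lower in the yak, and 2 of 7 higher and none lower in the cattle-yak. Under the restriction, 3 of 7 tested genes in the yak and 2 of 7 in the cattle-yak were at least 2-fold higher and none lower, with medians of 0.89 and 0.12. The gene described as NKG2-A-like (ENSBGRG00000021140), which is the partner of CD94 in an inhibitory receptor, was the most abundant, with 481 CPM in yak and 290 CPM in cattle-yak members against 86.8 and 103 CPM. It was seen in 29.9% and 22.2% of thinned members (40.8% and 34.0% without thinning) and in 0.0842% and 0.149% of thinned endothelial cells. CD94 (ENSBGRG00000020643) stood at 300 CPM (279 to 322) and 111 CPM (84.6 to 143) against 97.7 and 66.8 CPM. CD244, a receptor of the SLAM family, was at 63.3 and 62.8 CPM against 12.2 and 16.2 CPM, with a log2 ratio of 1.66 and 1.75 without germ gene UMIs. These receptors lay above TRDC-0 T cells in both libraries. NCR3, an activating receptor, was at 296 and 159 CPM, with ratios of 0.40 (0.24 to 0.57) and 0.01 (-0.40 to 0.41) without germ gene UMIs. KLRK1, the NKG2D receptor, had log2 ratios of -0.28 and 0.12 without germ gene UMIs and its adaptor HCST of 0.35 and 0.01. Receptors that mark NK cells as such were close to absent, with no UMI of NCR1 in either library and 5 and 1 UMIs of KLRF1, in sums of 2495925 and 541122 UMIs. KLRG1 turned with the restriction in the yak, from a log2 ratio of -1.43 to 1.93, and had -0.12 in the cattle-yak.

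Part of this pattern was shared with other cytotoxic cells. From the TRDC-0 T cells, memory-like T cells (697 and 206 cells) were taken, which held a UMI of IL7R, ICOS or CD28. Cytotoxic T cells without TRDC (452 and 142 cells) held none of these but at least 2 UMIs of CCL5 and NKG7. The remaining TRDC-0 T cells belonged to neither group. Without germ gene UMIs, the NKG2-A-like gene was at 500 CPM in yak members, 396 CPM in cytotoxic T cells without TRDC and 58.5 CPM in memory-like cells, and at 293, 322 and 10.2 CPM in the cattle-yak. CD94 was lower in members than in the cytotoxic T cells, at 324 against 447 CPM in the yak and 105 against 185 CPM in the cattle-yak. CD96, an adhesion receptor of T and NK cells, was at 362 against 319 CPM and 338 against 360 CPM. CD244 was higher and the alpha and beta constant genes lower than in the cytotoxic T cells in both libraries, with CD244 at 70.4 against 43.0 CPM and 61.9 against 34.3 CPM, the beta gene at 833 against 1581 CPM and 812 against 1629 CPM, and the alpha gene at 293 against 749 CPM and 143 against 713 CPM. IL2RB was at 605 against 396 CPM in the yak and 604 against 504 CPM in the cattle-yak. A group of 381 and 103 cells with at least 3 UMIs of CCL5 and NKG7 but neither TRDC nor CD3D or CD3G held the beta constant gene at 745 and 999 CPM.

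**Figure D2:**
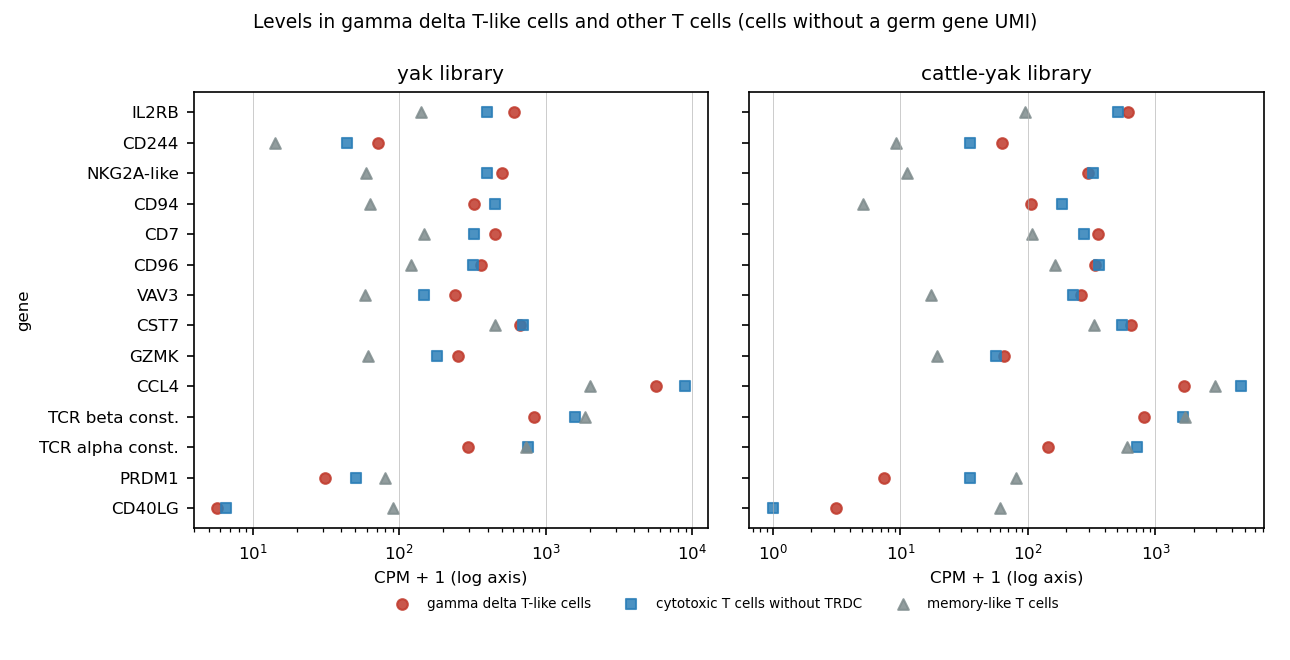
CPM plus 1 on a log axis (x axis) of 14 genes (y axis) in the yak library (left) and the cattle-yak library (right), for cells without a germ gene UMI. Red circles are gamma delta T-like cells, blue squares cytotoxic T cells without TRDC and grey triangles memory-like T cells. CD244 lies furthest right in the members of both libraries, the alpha and beta constant genes lie furthest left in them, and CD94 lies highest in the cytotoxic T cells without TRDC.

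Chemokine transcripts were abundant in members of both libraries. CCL5, a chemokine that cytotoxic lymphocytes store and release, stood at 6800 CPM in yak members (6698 to 6903) and 3763 CPM in cattle-yak members (3601 to 3930) against 1953 and 1861 CPM, a log2 ratio of 1.80 (1.13 without germ gene UMIs) and 1.01 (0.92). It was seen in 93.2% and 69.0% of thinned members (96.0% and 75.7% without thinning) and in 2.69% and 0.744% of thinned endothelial cells. CCL4 (ENSBGRG00000010946), a related chemokine, went the other way in the cattle-yak: it was at 5436 CPM in yak members against 2348 CPM, a log2 ratio of 1.21 (0.48 without germ gene UMIs), but at 1551 CPM in cattle-yak members against 3137 CPM, a log2 ratio of -1.02 (-0.99). The list of 13 chemokines and receptors summed to a log2 ratio of 1.44 (0.75 without germ gene UMIs) in the yak and 0.03 (-0.02) in the cattle-yak, where the median over its 5 tested genes was -0.44 (-0.61). Over all cells, 3 of its 7 tested genes in the yak were at least 2-fold higher and none lower, and 1 of 5 each way in the cattle-yak. In cells without germ gene UMIs, 2 of 7 tested genes were at least 2-fold higher in the yak and none lower, and none of 5 in either direction in the cattle-yak. CXCR4, a receptor for tissue homing, was at 871 and 643 CPM, with ratios of 0.20 and -0.36 without germ gene UMIs. CXCR6 was at 41.7 and 61.0 CPM and CXCR3 at 37.7 and 31.4 CPM, and CCR7, the receptor for entry to lymph nodes, had no UMI in either.

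Cytokine genes did not stand out. The list summed to 891 CPM in yak and 931 CPM in cattle-yak members, with log2 ratios of -0.01 (-0.59 without germ gene UMIs) and -0.26 (-0.30). None of its tested genes was at least 2-fold higher, and 3 of 11 in the yak and 1 of 7 in the cattle-yak were lower over all cells, and 1 of 8 and 2 of 7 without germ gene UMIs. LTB, a lymphotoxin subunit, was the most abundant, at 428 and 578 CPM. IFNG, interferon gamma, was at 32.5 and 12.9 CPM and TNF at 13.6 and 12.9 CPM. IL4, the cytokine of type 2 helper cells, was rare in members, with 5 UMIs in yak members against 84, and 1 UMI in cattle-yak members against 23, for log2 ratios of -2.55 (interval of the ratio -4.71 to -1.77) and -2.93 (-8.85 to -0.87), or -3.56 and -3.08 without germ gene UMIs. Among the 12 cytokine receptors, IL7R, which sustains memory T cells, was lower, at 219 CPM in yak members against 319 CPM and 310 CPM in cattle-yak members against 387 CPM, with log2 ratios of -1.25 and -0.31 without germ gene UMIs. The list as a whole had a log2 ratio of 0.71 (0.07 without germ gene UMIs, where the median over its genes was -0.57) in the yak and 0.57 (0.55) in the cattle-yak, and 2 of 11 and 3 of 7 tested genes were at least 2-fold higher and 1 and 0 lower without germ gene UMIs, against 3 of 11 and 3 of 7 higher and none lower over all cells.

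The receptor's signalling genes were present in members, and their number above and below TRDC-0 T cells depended on whether cells with germ gene UMIs were kept. The TCR signalling list had a log2 ratio of 1.07 (0.39 without germ gene UMIs) in the yak and 0.32 (0.20) in the cattle-yak. Over all cells 7 of 17 tested genes were at least 2-fold higher and none lower in the yak, and 3 of 15 higher and 1 lower in the cattle-yak. Without germ gene UMIs 2 of 17 were higher and 3 lower in the yak, and 3 of 14 higher and 3 lower in the cattle-yak, with medians of 0.27 and 0.05 over the tested genes. The phosphatase PTPRC, the surface protein CD45 of all leukocytes, made up most of the sum, at 1136 of 2067 CPM and 893 of 1706 CPM. CD7 (ENSBGRG00000006053), a surface protein of early and cytotoxic lymphocytes, was among the higher ones in both libraries, at 418 and 359 CPM against 110 and 150 CPM. The selection did not use CD3E (annotated as CD3e) or CD247, the zeta chain, which belong to the receptor complex as well. CD3E was at 128 CPM in yak members (114 to 143) against 51.6 CPM and at 103.5 CPM in cattle-yak members (78.2 to 134) against 74.9 CPM, with log2 ratios of 0.64 (0.37 to 0.92) and 0.37 (-0.18 to 0.93) without germ gene UMIs. CD247 was at 66.5 and 35.1 CPM against 50.01 and 20.8 CPM over all cells. Over all cells CD3E, but not CD247, was at least 2-fold higher in the yak. Without germ gene UMIs it was CD247 and not CD3E, with a median log2 ratio of 0.82 over both. In the cattle-yak neither was at least 2-fold higher in either set of cells, with a median of 0.60 in each. The kinase FYN was lower in both libraries without germ gene UMIs, at log2 ratios of -1.18 and -1.08. LCK, the kinase that starts the signal, was at 51.7 CPM in yak members against 15.9 CPM over all cells. In cattle-yak members it was at 33.3 CPM against 30.7 CPM. These LCK levels include cells with germ gene UMIs and are thus not on the scale of the FYN ratios. SH2D1A, the adaptor SAP of SLAM family receptors, differed between the libraries: yak members held 70 UMIs and 28.1 CPM against 21.3 CPM, a log2 ratio of 0.38 (-0.06 to 0.85), which turned to -0.13 (-0.62 to 0.36) without germ gene UMIs. Cattle-yak members held 1 UMI against 56 in TRDC-0 T cells, a log2 ratio of -4.18 (-10.1 to -2.24), or -4.17 without germ gene UMIs.

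Several costimulatory receptors of helper and memory T cells, CD28, ICOS and CD40LG, were lower in both libraries. CD28, the main costimulatory receptor, was at 8.01 CPM in yak members (4.89 to 12.4) against 50.2 CPM, and had no UMI in cattle-yak members against 49.6 CPM, where 0 UMIs allow up to 5.54 CPM (3 counts over the group) and the level was thus at least 8.95-fold lower. ICOS, a related receptor, was at 30.1 and 40.7 CPM against 109 and 129 CPM, with log2 ratios of -2.45 and -1.70 without germ gene UMIs. CD40LG, the helper cell ligand for B cells, was at 4.01 and 1.85 CPM against 34.7 and 27.1 CPM, and rested on 10 and 1 UMIs in members, with intervals of the log2 ratio of -4.198 to -2.20 and -9.22 to -1.28 (-4.82 to -2.70 and -9.31 to -1.37 without germ gene UMIs). CD4 had 2 UMIs in yak members and 0 in cattle-yak members, against 64 and 10 in TRDC-0 T cells. CTLA4 was at 2.40 CPM in yak members against 57.9 CPM, and at 0 against 4 UMIs in the cattle-yak. TNFRSF4 and TNFRSF9, receptors induced on activation, had 3 and 15 UMIs in yak members against 18 and 44, and 0 and 5 in cattle-yak members against 2 and 3. CD27, another costimulatory receptor, was not lower in the yak, at 36.5 CPM against 16.7 CPM, with a log2 ratio of 0.20 (-0.28 to 0.69) without germ gene UMIs, and had -0.76 (-2.05 to 0.32) in the cattle-yak. In contrast CD96 and CRTAM, which cytotoxic cells carry, were higher in the yak, at 334 and 167 CPM against 107 and 49.4 CPM, and at 359 and 161 CPM against 211 and 114 CPM in the cattle-yak. The list of 11 annotated coreceptors and costimulators, which holds genes of both kinds, had log2 ratios of 0.41 (-0.25 without germ gene UMIs) in the yak and 0.00 (-0.21) in the cattle-yak, while the medians over its genes were -1.04 (-1.81) and -0.59 (-0.99). Over all cells, 3 of 11 tested genes were at least 2-fold higher and 6 lower in the yak, and 0 of 7 higher and 3 lower in the cattle-yak. Among cells without germ gene UMIs, 1 of 10 tested genes was at least 2-fold higher and 6 lower in the yak, and 0 of 7 higher and 3 lower in the cattle-yak. Of the 6 annotated checkpoint genes, LAG3, an inhibitory receptor of activated T cells (annotated as LAG 3), held nearly all UMIs. It was at 82.9 CPM in yak members (72.02 to 95.04) against 44.9 CPM and at 37.0 CPM in cattle-yak members (22.6 to 57.1) against 79.4 CPM, with log2 ratios of 0.08 (-0.24 to 0.39) and -1.06 (-1.88 to -0.34) without germ gene UMIs. The list summed to 220 UMIs in the yak and 22 UMIs in the cattle-yak, 207 and 20 of them from LAG3, with log2 ratios of -0.38 (-0.98 without germ gene UMIs) and -1.05 (-1.02). None of its tested genes was at least 2-fold higher, and 2 of 3 in the yak and 1 of 1 in the cattle-yak were lower over all cells, and 1 of 2 and 1 of 1 without germ gene UMIs. PDCD1 had no UMI in either.

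Transcription factors as a list had log2 ratios of 0.37 (-0.24 without germ gene UMIs) in the yak and 0.06 (-0.11, with a median of 0.11 over its genes) in the cattle-yak, and 0 of 18 and 1 of 13 tested genes were at least 2-fold higher and 3 and 2 lower without germ gene UMIs, against 1 of 18 and 2 of 14 higher and 1 and 2 lower over all cells. ID2, RUNX3 and KLF2, factors common to many lymphocytes, made up most of it, with ID2 at 652 and 820 CPM and RUNX3 at 341 and 436 CPM. IKZF2, the factor Helios, was higher in members, at 167 and 126 CPM against 55.1 and 55.9 CPM, with log2 ratios of 0.81 and 1.16 without germ gene UMIs. PRDM1, the factor Blimp-1 of terminally differentiated lymphocytes, was lower, with 78 UMIs in yak members (31.2 CPM against 52.0 CPM) and 4 UMIs in cattle-yak members (7.39 CPM against 57.7 CPM). EOMES and TBX21, the factors of type 1 and cytotoxic lymphocytes, had ratios of 0.02 and -0.07 in the yak and -1.09 and 0.06 in the cattle-yak without germ gene UMIs, and the type 1 list as a whole 0.07 (-0.25 without germ gene UMIs) and -0.15 (-0.21), with 0 of 6 tested genes at least 2-fold higher or lower in the yak in either set of cells, and 1 of 5 each way in the cattle-yak without germ gene UMIs (1 of 6 each way over all cells). FOXP3, the factor of regulatory T cells, had no UMI in members of either library.

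The tissue residency list, genes tied to life in tissue, had log2 ratios of 0.97 (0.26 without germ gene UMIs) and 0.17 (0.04), with none of 11 and 10 tested genes at least 2-fold higher and 1 lower in each without germ gene UMIs, against 3 of 11 and 0 of 10 higher and 0 and 1 lower over all cells. RGS1, a brake on chemokine signalling, was the most abundant at 2852 and 1726 CPM. CD69 was at 68.9 and 42.5 CPM and ITGA1 at 85.7 and 66.5 CPM. The circulation and memory list had ratios of -0.01 (-0.64) and 0.04 (-0.09). Of the genes tied to ruminant gamma delta T cells, GATA3 was at 15.2 and 31.4 CPM, and CCR10, ID3 and CD163 each had 3 UMIs or fewer, for list ratios of 0.37 (-0.23) and 1.27 (1.19), which rest nearly on GATA3 alone. The early response and dissociation genes, which rise when tissue is taken apart, had ratios of 0.64 (-0.07) and 0.20 (0.08), and heat shock genes 0.10 (-0.14) and -0.13 (-0.07). The cell cycle list had ratios of -0.59 (-0.10) and -0.93 (-0.55), led by TOP2A at 109 and 86.9 CPM.

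Genes outside the lists were named by a fixed rule of size. A gene of unknown function (ENSBGRG00000007724, described as an uncharacterised protein) was among the furthest above TRDC-0 T cells in both libraries, at 531 CPM in yak members (503 to 561) against 53.0 CPM and at 362 CPM in cattle-yak members (313 to 417) against 55.0 CPM. It was seen in 37.5% and 24.1% of thinned members, (57.3% and 48.1% without thinning), in 0.0842% of yak and 0 of 672 cattle-yak thinned endothelial cells, and stood at 189 and 154 CPM in cytotoxic T cells without TRDC. SPEF2, known from the sperm tail, was at 131 and 79.5 CPM. Its log2 ratio of 0.19 in all yak cells became 2.45 without germ gene UMIs, and was 2.01 and 2.13 in the cattle-yak. VAV3, a signalling protein downstream of antigen and NK receptors, was at 222 and 257 CPM against 49.2 and 84.8 CPM. LAT2, an adaptor of immune receptors, was at 76.9 and 122 CPM against 15.2 and 33.4 CPM, and CD300H, an activating receptor, at 58.1 and 33.3 CPM against 8.27 and 14.4 CPM. CD101 was at 54.5 and 22.2 CPM against 8.07 and 9.92 CPM.

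On the lower side, the 12 yak genes named by the rule over all cells included germ cell transcripts such as SPATA6, TSACC and a gene described as spermatid nuclear transition protein 3-like (ENSBGRG00000012699). Without germ gene UMIs they began with CD28, TRPS1 (log2 ratio -2.92), ICOS, DPP4 (-2.41), RALGPS2 (-2.14) and GPR183 (-1.90), a receptor that guides lymphocytes to oxysterols. In the cattle-yak they included CD28, SH2D1A, PRDM1, the alpha constant gene and PLAC8, which was at 57.3 CPM against 236 CPM. CD74, the invariant chain of class II antigen presentation, was at 212 CPM in cattle-yak members against 690 CPM, and at 674 against 572 CPM in all yak cells, where the ratio without germ gene UMIs was -0.56.

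The libraries, which share no animal, were compared over 4515 genes tested in both without germ gene UMIs. Of the 77 genes at least 2-fold higher in yak members and the 209 in cattle-yak members, 32 were the same, which is 41.6% of the yak and 15.3% of the cattle-yak list. Among the 77, 70 (90.9%) were above 0 in the cattle-yak, where 51.6% of all tested genes were. They included IL2RB, NKG7, GZMK, the NKG2-A-like gene, CD7, CD244, SLAMF7, VAV3, LAT2, CD300H, SPEF2 and RHEX. Of the 64 and 194 genes at least 2-fold lower, 25 were the same (39.1% and 12.9%), and 48 of the 64 (75%) were below 0 in the cattle-yak, against 48.4% of all. They included both constant genes, CD28, ICOS, CD40LG, IL4, PRDM1, FYN, PLAC8, BHLHE40, LY6E, ISG15 and the gene described as BCL2-related protein A1 (ENSBGRG00000021957). Over all cells, 5214 genes were tested in both. There, 64 of the 266 yak genes higher (24.06%) and 150 of the 748 lower (20.05%) were the same in the cattle-yak. Of the yak genes higher, 78.95% were above 0 in the cattle-yak against 42.75% of all, and of those lower, 70.19% were below 0 against 57.25%. Across the 4515 genes, which are not independent, Pearson's r was 0.35.

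**Figure D3:**
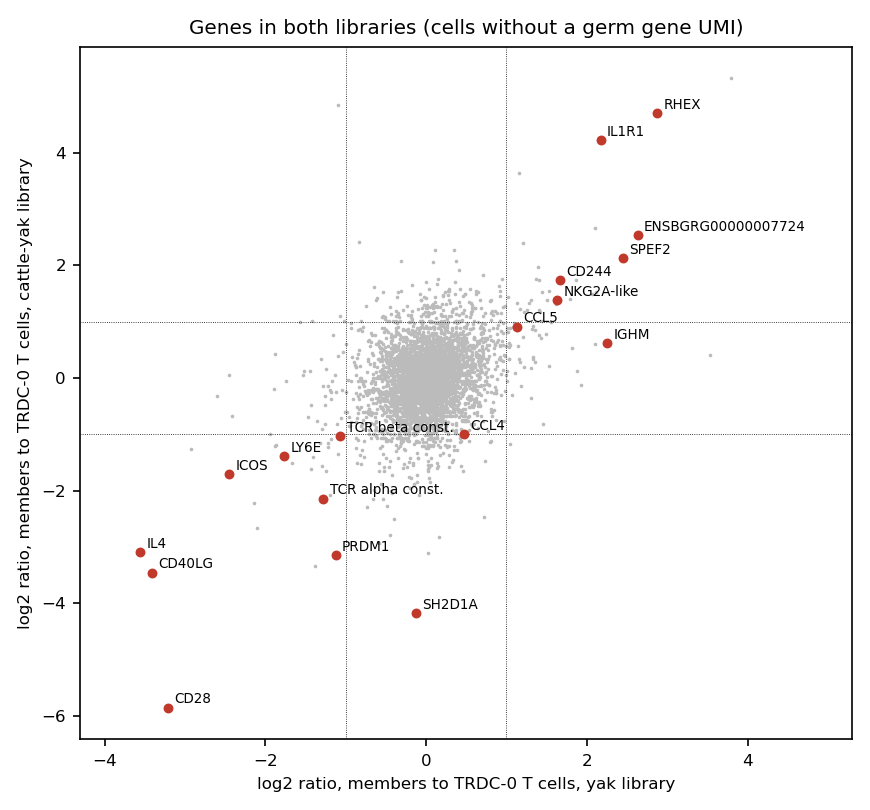
Log2 ratio of gamma delta T-like cells over TRDC-0 T cells in the yak library (x axis) and the cattle-yak library (y axis), 1 point for each of 4515 genes, for cells without a germ gene UMI. Red points are named genes and dotted lines mark 2-fold. RHEX, CD244 and the NKG2-A-like gene lie in the upper right, CD28 (0 UMIs in cattle-yak members), CD40LG, IL4 and ICOS in the lower left, and CCL4 and SH2D1A lie low only in the cattle-yak library.

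Genes outside the selection placed members near each other. Among T cells thinned to 1000 UMIs, with the selecting genes left out, 65.4% of the 15 nearest neighbours of yak members were members, against 30.5% for TRDC-0 T cells, where members were 43.1% of the cells used. In the cattle-yak the shares were 54.0% and 25.5%, where members were 34.0%. Without the alpha and beta constant genes and the cytotoxic list they were 63.7% and 30.8% in the yak, and 52.9% and 26.5% in the cattle-yak.

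Members were not uniform. A minority held a UMI of IL1R1, CCR6 or BLK, genes of the type 17 programme that were chosen after their values were seen. There were 33 such cells of 977 in the yak (3.38%) and 31 of 206 in the cattle-yak (15.05%). Thinned to 1000 UMIs, these were 1.36% of yak members (exact binomial interval 0.724% to 2.31%) and 7.88% of cattle-yak members (4.57% to 12.5%), against 0.229% (0.00581% to 1.27%) and 1.46% (0.177% to 5.17%) of cytotoxic T cells without TRDC. TRDC-0 T cells gave 0.474% (0.174% to 1.03%) and 0.759% (0.157% to 2.20%), and germ cells 0.319% (0.0386% to 1.15%) and 0.296% (0.00749% to 1.64%), or 3.45% and 3.22% without thinning at their far greater depth. The intervals of members lay above those of TRDC-0 T cells and of germ cells in the cattle-yak and overlapped them in the yak, and they overlapped those of cytotoxic T cells without TRDC in both. Endothelial cells, which carry IL1R1 themselves, gave 2.69% and 1.04%, and are no measure of free RNA for it. IL1R1, the interleukin-1 receptor, was at 12.4 against 1.38 CPM in the yak and 86.9 against 4.51 CPM in the cattle-yak, and was seen in 0.626% and 4.93% of thinned members (1.95% and 12.6% without thinning). CCR6, a chemokine receptor, was at 6.81 against 2.17 CPM and 20.3 against 2.71 CPM, with 17 and 11 UMIs in members. The type 17 list summed to log2 ratios of 0.17 (-0.34 without germ gene UMIs, with a median of 0.20 over its genes) in the yak and 1.79 (1.80, interval 1.25 to 2.37) in the cattle-yak. Of its tested genes, 2 of 5 in the yak were at least 2-fold higher and 1 lower over all cells (2 of 4 and 1 without germ gene UMIs), and 1 of 2 in the cattle-yak was higher in either set of cells.

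Without germ gene UMIs, 27 yak and 29 cattle-yak members of this kind were set beside the other 774 and 148, and since the yak share overlapped that of other cell types, the yak values are the less certain. The cells with such a UMI were deeper, with medians of 2787 against 2062.5 UMIs in the yak and 3303 against 2317.5 UMIs in the cattle-yak, and a deeper cell is more likely to show a rare UMI. IL7R stood at 741 against 205.5 CPM in the yak and 1060 against 138 CPM in the cattle-yak, and LTB at 2029 against 385 CPM and 1784 against 292 CPM. JAG1, a Notch ligand, was at 433 against 30.1 CPM and 744 against 70.2 CPM. It was also seen in 12.2% and 18.8% of thinned endothelial cells, more than in members as a whole. Endothelial markers stood at 331 against 57.4 CPM in the yak, a log2 ratio of 2.53 (1.88 to 3.13). In the cattle-yak they stood at 61.2 against 48.6 CPM, with 0.33 (-1.29 to 1.73). The median mitochondrial share was 17.4% against 14.8% in the yak and 24.2% against 21.75% in the cattle-yak. The part of endothelial RNA in the values of this split was not tested. GPR183 was at 228 against 51.9 CPM and 520 against 64.8 CPM, and ICOS at 125 against 29.0 CPM and 143 against 18.9 CPM. RORA, a nuclear receptor of several lymphocyte types, was at 125 against 30.1 CPM and 102 against 13.5 CPM. ZBTB16, the factor PLZF of innate-like T cells, was at 79.8 against 12.03 CPM and 143 against 13.5 CPM, resting on 7 and 14 UMIs in the minority, and RHEX at 125 against 13.7 CPM and 285 against 29.7 CPM.

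The cytotoxic list was lower in the same cells, at 1676 against 2583 CPM in the yak, a log2 ratio of -0.62 (-0.87 to -0.39), and at 714 against 2372 CPM in the cattle-yak, -1.73 (-2.11 to -1.38). Of its tested genes, 6 of 10 in the yak were at least 2-fold lower and none higher, and 5 of 7 lower and 1 higher in the cattle-yak. The share over all genes was not counted for this split, so these counts have no background and nothing is read from them. SRGN was the higher one, at 173 against 78.4 CPM, and was at 205 against 143 CPM in the yak. The NK receptors had log2 ratios of -0.80 and -0.92 and the chemokines of -1.52 and -3.47. CCL5 was at 2987 against 7535 CPM in the yak and 102 against 4780 CPM in the cattle-yak, and the NKG2-A-like gene at 79.8 against 520 CPM and 10.2 against 367 CPM. IL2RB was at 228 against 623 CPM and 61.2 against 748 CPM, and CST7 at 308 against 685 CPM and 143 against 775 CPM. NKG7 was close in the yak, at 593 against 759 CPM, and at 132.5 against 846 CPM in the cattle-yak. The difference between the libraries was not tested. The beta constant gene was at 467 against 851 CPM and 448.5 against 908 CPM. All members, including those with germ gene UMIs, were also split by the NKG2-A-like gene alone (399 with it and 578 without it in the yak, 70 and 136 in the cattle-yak). This gave a like picture for IL7R, at 142 CPM with the gene and 271 CPM without it in the yak, and at 37.4 and 455 CPM in the cattle-yak. Median depths were 2125 and 2116.5 UMIs in the yak and 2371.5 and 2533 UMIs in the cattle-yak.

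**Figure D4:**
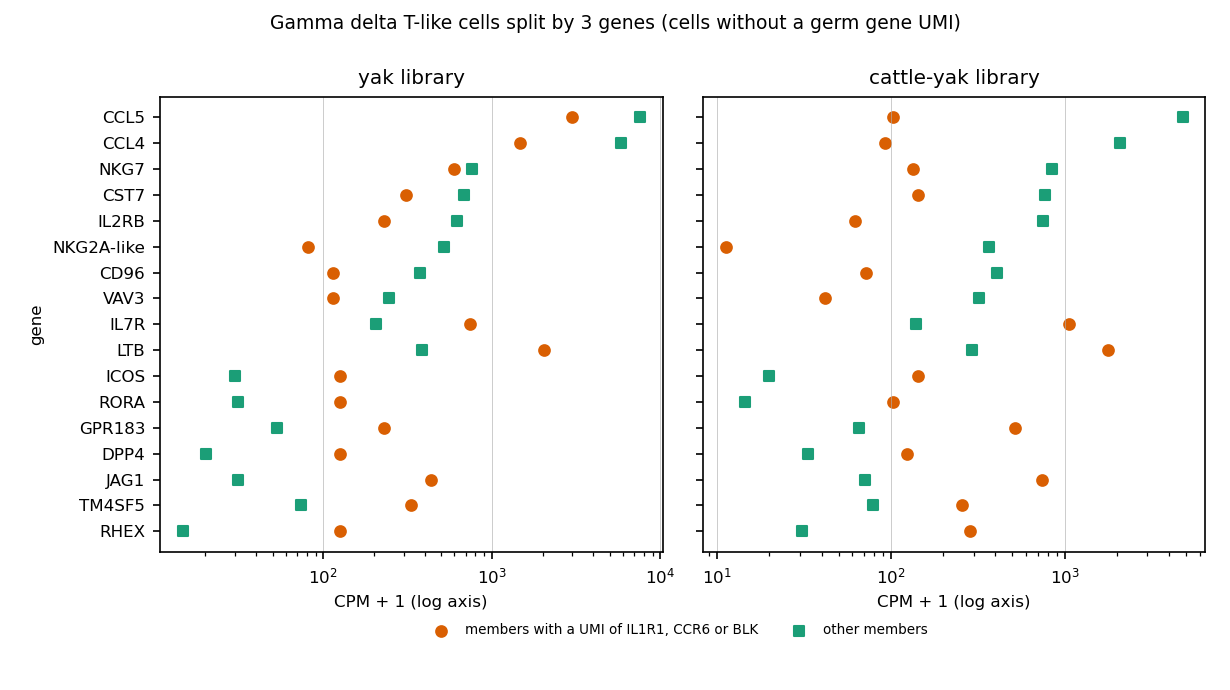
CPM plus 1 on a log axis (x axis) of 17 genes (y axis) in gamma delta T-like cells without a germ gene UMI, yak library left and cattle-yak library right. Orange circles are members with a UMI of IL1R1, CCR6 or BLK (27 and 29 cells), green squares the other members (774 and 148 cells). CCL5, IL2RB and the NKG2-A-like gene lie lower and IL7R, LTB and JAG1 higher in the first group in both libraries. Summed endothelial markers were also higher in the first group of the yak library, at 331 against 57.4 CPM.

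TRDC itself, which the selection fixed from below, was at 2238 CPM in yak members and 2236 CPM in cattle-yak members. Between the libraries, 1704 of 7548 genes (22.6%) were at least 2-fold higher in yak members and 133 (1.76%) in cattle-yak members, with a median log2 ratio of 0.40. Mitochondrial features and 2 very abundant features of unknown function (ENSBGRG00000010006 and ENSBGRG00000021408) took 23.0% of the UMIs of yak members and 35.8% of those of cattle-yak members. With these left out of the total and without germ gene UMIs the median was 0.06, and the counts were 692 of 6397 (10.8%) and 248 (3.88%). On that scale, CCL4 was higher in yak members by a log2 ratio of 1.49, GZMK by 1.71, CD94 by 1.38 and CCL5 by 0.70, and SH2D1A, with 1 UMI in cattle-yak members, by 3.35 (1.16 to 9.02). IL1R1, CCR6 and ZBTB16 were higher in cattle-yak members, with yak to cattle-yak log2 ratios of -3.12, -1.74 and -1.62.

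Among lists on the same scale, the chemokines had a ratio of 0.92 (0.86 to 0.97), the NK receptors of 0.58 (0.42 to 0.74), the cytotoxic list of 0.08 (-0.02 to 0.18) and the type 17 programme of -1.66 (-2.08 to -1.23). The muscle markers, RNA of another cell type, had a ratio of 1.31 (1.03 to 1.60), and their part in these differences was not tested. With the members holding a UMI of IL1R1, CCR6 or BLK left out, on the same scale and again without germ gene UMIs, CCL4 had a ratio of 1.24, GZMK of 1.45, CD94 of 1.11 and CCL5 of 0.43. NKG7 had a ratio of -0.39 (-0.57 to -0.21) there and -0.14 (-0.31 to 0.04) with these members kept, and IL2RB of -0.50 and -0.25, that is, higher in cattle-yak members. Of the genes named by the rule, ENSBGRG00000020609 and ENSBGRG00000008342 had 1467 and 1070 UMIs in yak members and none in cattle-yak members. In TRDC-0 T cells they were at 421 and 479 CPM in the yak, so they were not particular to members. Among the other genes that the rule named as higher in yak members were transcripts of spermatids, TSACC with 522 against 0 UMIs and DKKL1 with 708 against 4. They were not among the 9 germ genes, and in cells without a UMI of those TSACC still had 119 against 0 UMIs and DKKL1 168 against 3, so germ cell RNA remained in that set. There, DKKL1 and TSACC had log2 ratios of members over TRDC-0 T cells of -0.18 and -0.14 in the yak. The part of germ cell RNA in the differences between the libraries was not tested.

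IGHM, the heavy chain of immunoglobulin M, was also named by the rule, at 471 CPM in yak members against 74.2 CPM and 68.4 CPM in cattle-yak members against 42.4 CPM. A single yak member held 801 of the 1176 UMIs. Without it the yak level was 150.5 CPM and the log2 ratio 1.01.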

How the data were processed

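The authors aligned and counted the 10x reads with Cell Ranger, whose version is 2.1.1 in the submitters' notes and 5.0.0 in the header of the deposited count tables, while the study's methods name a further version. These tables hold unnormalised UMI counts of 26961 features, in 60816600 UMIs for the yak and 43774841 UMIs for the cattle-yak, with a median of 2533 and 3155 UMIs in 11991 and 8930 cells. No value was rescaled before use.

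The members and the gene lists were chosen with earlier results of these data known. Mitochondrial UMIs were those of features whose identifier was not a yak Ensembl gene. No doublet caller was run, and a limit of 2 standard deviations around the mean genes and UMIs was tried instead. UMIs were summed over the cells of a group, since cells of 1 library are not replicates. Intervals at 95% were exact (Poisson for levels, Clopper-Pearson for shares, conditional binomial for ratios), cover counting error only and say nothing of animals. A gene was counted as higher or lower at 2-fold, after adding 1 CPM, where both sides together held at least 20 UMIs. Named genes were the 12 with the largest ratio each way in each library, and the 10 each way between libraries, with at least 50 UMIs and a UMI in at least 10% of the cells of the higher group, beside the genes of the lists. For shares, each cell was thinned to 1000 UMIs, which also left out 71 yak and 13 cattle-yak TRDC-0 T cells and 11 yak endothelial cells. Neighbours were the 15 nearest cells over 20 principal components of 1000 variable genes. Some genes were left out of the lists and are not reported here. Symbols missing from the tables were taken from the study's gene descriptions. Python 3.11.15, numpy 2.4.6, scipy 1.17.1, pandas 2.3.3 and matplotlib 3.10.9 were used, and the counting of changed genes was tested on simulated data.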

Additional observations from a re-analysis of the deposited data

Results flagged for a closer look

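CCL4, a chemokine, and CXCR4, a chemokine receptor, lay on opposite sides of 0 in the libraries, each with an interval that did not reach 0, for cells without a germ gene UMI. CCL4 (ENSBGRG00000010946) had a log2 ratio of members over TRDC-0 T cells of 0.48 in the yak and -0.99 in the cattle-yak. CXCR4 had 0.20 in the yak and -0.36 in the cattle-yak. With 1 library of each kind the difference between them was not tested.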

How the results depend on the processing

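No paired analysis was possible because each group was 1 library. Of 106 alternative values, 45 moved by less than their interval or 1.5 times, 61 moved further and 0 turned in direction, and the causes were not tested. Taking the settings in turn, the share of members was 7.126% in the yak and 2.257% in the cattle-yak with at least 3 TRDC UMIs, 10.71% in the yak with at least 1, 9.434% in the yak within 2 standard deviations, 5.875% and 1.772% with no UMI of 7 further genes of other types, and 1.644% in the cattle-yak below 20% mitochondrial UMIs. The log2 ratio of the alpha and beta constant genes in the yak was -0.3469 with at least 3 TRDC UMIs, -0.3194 below 20% mitochondrial UMIs, -1.085 within 2 standard deviations, -0.6919 without the 7 further genes, -1.095 thinned, -1.053 with cells weighted equally, -0.6408 matched by depth, -0.3428 without mitochondrial UMIs in the total, -0.5882 against memory-like and -0.7997 against cytotoxic T cells, and -1.125 without germ gene UMIs. In the cattle-yak it was -0.7229 below 20% mitochondrial UMIs. The cytotoxic list in the yak had 1.179 with at least 3 TRDC UMIs, 0.5809 within 2 standard deviations, 0.8193 without the 7 further genes, 0.5082 thinned, 0.5554 weighted equally, 0.9218 matched by depth, 1.191 without mitochondrial UMIs in the total, 1.336 against memory-like T cells and 0.5303 without germ gene UMIs, and in the cattle-yak 0.8862 against memory-like T cells. Genes higher in yak members numbered 163 within 2 standard deviations, 278 without the 7 further genes, 180 thinned, 244 with 5 CPM added, 657 with no minimum, 241 with at least 100 UMIs and 202 without germ gene UMIs. Lower ones numbered 420 within 2 standard deviations, 2288 without the 7 further genes, 572 thinned, 2277 with at least 100 UMIs and 187 without germ gene UMIs. In the cattle-yak, higher genes numbered 108 with 5 CPM added, 1571 with no minimum and 20 with at least 100 UMIs, and lower ones 247 within 2 standard deviations, 133 thinned, 275 with 5 CPM added, 2304 with no minimum, 48 with at least 100 UMIs and 197 without germ gene UMIs. Genes differing between the libraries numbered 1144 without the 7 further genes, 894 thinned, 5298 with no minimum, 410 with at least 100 UMIs, 1079 without germ gene UMIs and 940 on the reduced total as well. The neighbour share was 63.13% in the yak and 56.52% in the cattle-yak with 10 components, 63.7% in the yak without the constant genes and cytotoxic list, 66.99% in the yak without germ gene UMIs and 51.0% in the cattle-yak with 30 neighbours. The settings on germ gene UMIs were chosen after seeing the data. Depth limits rare receptors: a gene with 0 UMIs in members could stand at up to 1.20 CPM in the yak and 5.54 CPM in the cattle-yak.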
